A study of Mus musculus with 5 samples.

Results

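Transcriptomes of OT-I CD8+ T cells were compared between 72 h and 24 h of co-culture with peptide-loaded dendritic cells (DCs) in the absence of myeloid-derived suppressor cells (MDSCs). All cells that the deposited annotation assigns to these 2 cultures were used, 1562 cells at 24 h and 1926 cells at 72 h, together 3488 of the 13629 cells of the series. OT-I cells are mouse T cells with a transgenic receptor for the ovalbumin peptide SIINFEKL presented by an MHC class I molecule. They came from spleen and lymph nodes of mice of the strain C57BL/6-Tg(TcraTcrb)1100Mjb/J, and every co-culture held DCs pulsed with this peptide. After co-culture in RPMI-1640 medium with serum and L-glutamine, the T cells were enriched by FACS and loaded on the 10x Genomics droplet platform. The other libraries of the series were cells before co-culture (0 h) and cells of both times with MDSCs added. The age of the mice, how many were used, the origin of the DCs and whether both times came from the same cells are not given in the sources used here. Each culture was 1 library, so the differences could not be set against a spread between replicates or tested, and time in culture cannot be told apart from any other difference between the 2 libraries.

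The deposited values were whole numbers adjusted for depth, and the number of molecules behind them is unknown. A level in CPM scales the summed adjusted counts of a gene to 1000000 for the whole library, and levels are printed in the order 24 h, 72 h. A log2 ratio is the level at 72 h over that at 24 h. A share of cells counts those with an adjusted count above 0. The adjusted total per cell had a median of 15768 at 24 h and 15412.5 at 72 h, with 3583.5 and 3217 genes above 0 in the median cell. The libraries shared 8 cell barcodes. Cd4 was at 0.0823 and 0.171 CPM, Cd8b1 at 548 and 784 CPM, and 3 cells at 24 h and 2 at 72 h held 3 or more markers of 1 other cell type. Markers that belong to a gene list were not counted. For neutrophils, NK cells, gamma delta T cells and stromal cells fewer than 3 were left, so no cell could be found for these types. The granulocyte genes S100a8, S100a9 and Ngp were listed at 0 in both libraries. Of 8 measured DC markers, the 6 outside the gene lists summed to 77.6 and 155 CPM, of which 72.9 and 147 were Cst3, a protease inhibitor gene. The DC marker Batf3, a member of a list and so outside this sum, was at 32.4 and 42 CPM. No cell type known to lack a gene was found among the cells, so a share of cells due to free RNA was not tested.

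A naive CD8 T cell that meets its peptide first switches on immediate signalling targets and cytokine genes, grows, copies its DNA and then divides. Dividing effector cells make granzymes, rely on glycolysis and tune receptors for cytokines, homing and inhibition. Hypoxia-inducible factor (HIF) drives genes of oxygen sensing, glucose use and mitophagy, and its protein can also be stabilised in activated T cells.

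Promoter sequences are shown for 5 genes that stood low at 24 h and high at 72 h and that stand for the hypoxia, metal response and mitotic gene groups described below. They are the 250 bases before the transcript start in RefSeq (GRCm38.p6), 5′ to 3′ on the gene's strand, with motif matches on either strand in capitals. For Bnip3 (chr7:138909507-138909756, minus strand) and Slc16a3 (chr11:120948817-120949066, plus strand) the capitals mark ACGTG or GCGTG, cores of HIF sites. In Bnip3 2 of the 5 matches overlap within CACGTG. For Mt2 (chr8:94172368-94172617, plus strand) and Mt1 (chr8:94178839-94179088, plus strand) they mark TGCGCNC or TGCACNC, the core of metal response elements. For Ccnb2 (chr9:70421555-70421804, minus strand) they mark CCAAT, a box found before many mitotic genes.
Bnip3: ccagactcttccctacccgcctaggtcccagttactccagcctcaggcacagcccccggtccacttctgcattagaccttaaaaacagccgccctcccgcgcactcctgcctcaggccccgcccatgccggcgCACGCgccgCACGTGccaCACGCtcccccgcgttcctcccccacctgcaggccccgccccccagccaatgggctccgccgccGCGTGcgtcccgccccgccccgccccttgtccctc
Slc16a3: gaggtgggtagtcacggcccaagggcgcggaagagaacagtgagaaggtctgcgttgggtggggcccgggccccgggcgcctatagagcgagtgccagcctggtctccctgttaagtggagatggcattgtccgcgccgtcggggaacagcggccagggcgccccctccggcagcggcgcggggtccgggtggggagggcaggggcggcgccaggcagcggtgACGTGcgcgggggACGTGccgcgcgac
Mt2: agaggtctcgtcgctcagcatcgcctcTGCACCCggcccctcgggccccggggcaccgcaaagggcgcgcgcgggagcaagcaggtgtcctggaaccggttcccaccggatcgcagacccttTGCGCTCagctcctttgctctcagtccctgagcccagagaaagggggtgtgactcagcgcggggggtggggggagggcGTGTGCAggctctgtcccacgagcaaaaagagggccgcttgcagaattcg
Mt1: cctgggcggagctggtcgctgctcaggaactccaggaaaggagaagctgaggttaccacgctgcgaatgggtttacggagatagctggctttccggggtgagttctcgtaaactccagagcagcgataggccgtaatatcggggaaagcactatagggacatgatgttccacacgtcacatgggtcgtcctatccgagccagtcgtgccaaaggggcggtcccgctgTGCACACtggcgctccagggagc
Ccnb2: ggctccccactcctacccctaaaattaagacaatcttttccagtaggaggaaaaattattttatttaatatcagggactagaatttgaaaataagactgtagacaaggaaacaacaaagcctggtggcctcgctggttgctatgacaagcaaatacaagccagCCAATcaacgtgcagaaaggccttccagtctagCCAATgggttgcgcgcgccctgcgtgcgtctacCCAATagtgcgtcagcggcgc
Of the hypoxia list's 33 genes at 10 CPM or more, 26 had a promoter in the table and 22 of these (84.6%) held at least 1 ACGTG or GCGTG in the same window. The share was 60.9% of all 5697 matched genes at that level and 38.6% of all 32851 windows. For ACGTG alone the shares were 57.7%, 24.0% and 16.6%. CCAAT stood in 49 of 69 matched promoters of the G2 and M phase list (71.0%), against 37.1% and 33.8%. The E-box CACGTG, bound by MYC, was present in 6 of 60 promoters of the ribosome biogenesis list (10.0%), close to the 8.99% of genes at that level and the 6.02% of all windows. At least 3 metal response cores were found in Mt2 and in 1.26% of all windows, whereas the Mt1 window held 1. The share with at least 3 was 2.39% of genes at that level, and Mt2 was the 1 such gene among 11 matched promoters of the metallothionein and zinc list. Bases outside these windows were not searched, so the counts for Mt1 and Mt2 hold for the printed windows only. A match is a run of letters and not a measured binding site.

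In all 2931 genes reached 50 CPM at 24 h or 72 h, of which 478 (16.3%) were higher at 72 h by 2-fold or more and 696 (23.7%) lower by as much. The median log2 ratio was -0.25 over these genes and -0.14 over the 1711 that reached 50 CPM at both times, so a gene at 0 stood slightly above the typical gene. Gene lists were counted at 10 CPM and 1.5-fold, where 23.1% of 7336 genes were higher and 34.8% lower (median -0.23). Per cell, the difference was described by the probability that a cell drawn at 72 h exceeds a cell drawn at 24 h, with ties shared equally. That probability was 0.9 or more for 69 of the 2931 genes and 0.1 or less for 75.

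**Figure D1:**
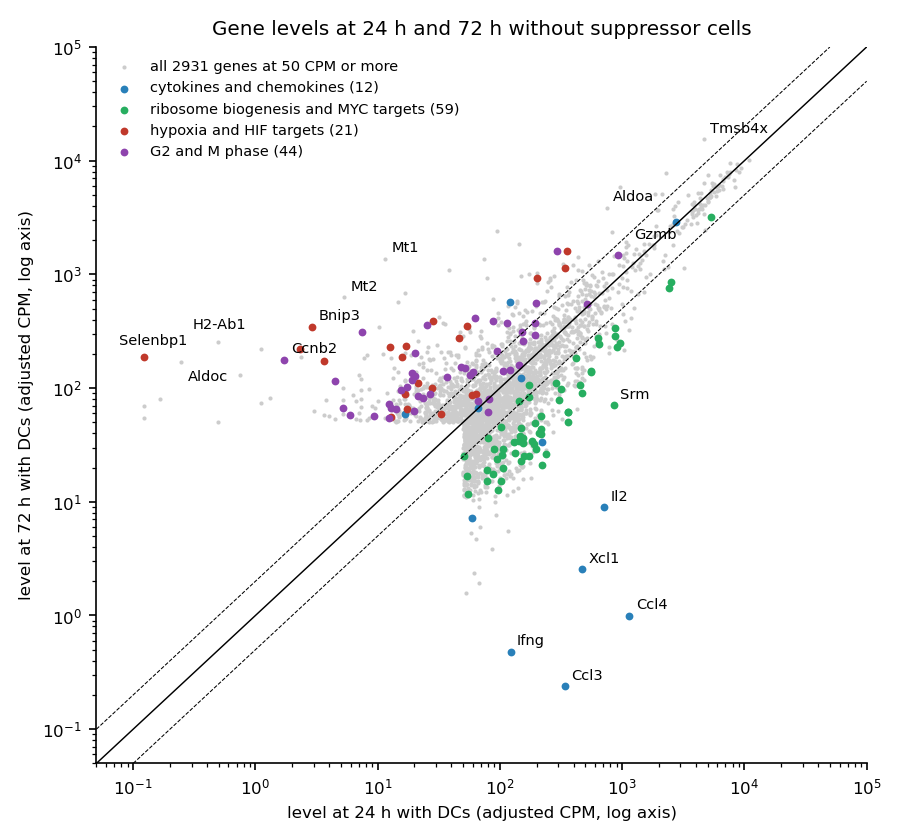
Levels of the 2931 genes reaching 50 CPM at either time, at 24 h (x axis) and 72 h (y axis) in adjusted CPM on log axes, with equality as the solid line, 2-fold as dashed lines and 4 gene lists coloured. Hypoxia and G2/M genes lie mostly above the upper dashed line, ribosome biogenesis genes mostly below the lower one, and Ccl3, Ccl4, Xcl1, Ifng and Il2 far below it.

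Cytokine and chemokine genes were mostly lower at 72 h. Of 28 measured, 15 reached 10 CPM, of which 2 were higher by 1.5-fold or more at 72 h and 10 lower by as much. The median log2 ratio was -6.31, the farthest from 0 of the 42 lists at that minimum. It was -2.82 with levels taken from the mean natural log value and -2.87 over the 12 genes at 50 CPM or more, where 2 other lists lay farther from 0 (6.90 over 3 metallothionein and zinc genes and 5.56 over 2 MHC class II genes). The levels rested on a tail of cells. At 24 h Ccl4, which attracts other immune cells, had a median of 2 adjusted counts per cell, a 90th percentile of 50 and a maximum of 607. At 72 h it was above 0 in 18 of 1926 cells, with a maximum of 6. Il2, the T cell growth factor, was above 0 in 52.4% (exact 95% interval 49.9 to 54.9%) and 11.7% (exact 95% interval 10.3 to 13.2%) of cells, and its maximum was 500.0 and 4 adjusted counts. These intervals cover counting error only, here and below. Cells with 16 or more adjusted counts of Il2 made up 14% of the 24 h library and 0% of the 72 h library.

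Cytokine transcripts were concentrated in few cells at 24 h. The top 5% of cells held 87.9% of the Ifng total, 63.9% of Il2, 53.3% of Ccl3, 45.6% of Xcl1, 43.2% of Ccl4 and 38.9% of Tnf. Ifng, the interferon that activates macrophages, was above 0 in 15.8% and 0.623% of cells and Tnf in 43.1% and 9.50%. Il2 and Ifng were both above 0 in 8.0% of cells at 24 h, and all of Ccl3, Ccl4, Xcl1, Il2, Ifng and Tnf in 41 cells (2.62%, exact 95% interval 1.89 to 3.54%). None of these 6 genes was above 0 in 7.17% of 24 h cells and 76.7% of 72 h cells. Ccl3 and Ccl4 were both above 0 in 691 cells at 24 h and in 0 of 1926 cells at 72 h, which allows a share of up to 0.191%. They are close paralogs whose reads the counting may have split.

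Not every cytokine gene stood lower. Ltb, the lymphotoxin beta chain, was at 121 and 566 CPM and above 0 in 46.5% and 97.3% of cells, while Lta, the secreted alpha chain, was at 223 and 33.8 CPM. Il16 was at 16.9 and 59.3 CPM, and Mif at 2776 and 2877 CPM (log2 ratio 0.05). Ccl5 was at 66.2 and 67.4 CPM, with 22.7% and 23% of cells above 0. Ccl1 was at 13 CPM at 24 h and listed at 0 at 72 h.

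**Figure D2:**
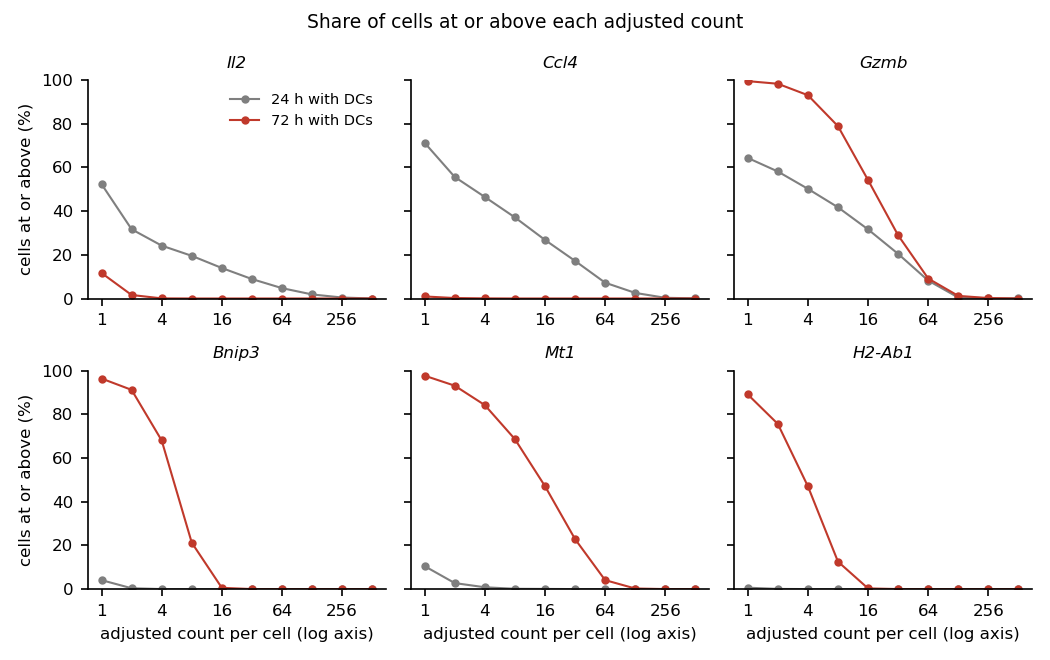
Share of cells (y axis, %) at or above each adjusted count per cell (x axis, log scale) for 6 genes at 24 h (grey, 1562 cells) and 72 h (red, 1926 cells). For Il2 and Ccl4 a long tail is present in the 24 h library alone among the 2, for Gzmb the curves meet near 64 counts, and for Bnip3, Mt1 and H2-Ab1 nearly all the signal is in the 72 h library.

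Early activation genes stood lower too. Of 32 members reaching 10 CPM, 1 was higher by 1.5-fold or more and 27 lower by as much (median log2 ratio -2.28). Their sum per cell had a median of 38 and 13 adjusted counts. Among the lower members were Nfkbid, of the family of NF-kappaB inhibitors, at 86.8 and 3.87 CPM, the zinc finger factor Egr2 at 11.2 and 0.411 CPM and Rgs16, which shortens G protein signals, at 17.3 and 0.377 CPM. Irf4, which scales effector growth with receptor signal, was at 103 and 21.7 CPM (log2 ratio -2.24) and Cd69, an early activation marker, at 135 and 36.9 CPM. Cd200 was at 116 and 5.49 CPM and Cd83 at 21.2 and 0.960 CPM. The member at least 1.5-fold higher was Fosl2, an AP-1 factor, at 3.25 and 16.3 CPM. Junb (272 and 301 CPM), Egr1 (10.9 and 15.9 CPM) and Batf3 (32.4 and 42 CPM) differed by less than 1.5-fold.

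Receptors of cytokines and their feedback genes were split. Of 30 members reaching 10 CPM, 11 were higher by 1.5-fold or more and 7 lower by as much (median log2 ratio 0.10). The higher members included both survival and interferon receptors: Ifngr1, a chain of the interferon gamma receptor, stood at 25.8 and 229 CPM (23.9% and 89.3% of cells) and Il7r, which sustains resting and memory cells, at 9.34 and 41.4 CPM (11.7% and 36.8% of cells). Il2ra, the high-affinity IL-2 receptor chain, was at 163 and 124 CPM, a log2 ratio of -0.39. STAT5-linked genes stood among the lower members, with Stat5a at 83.6 and 19.1 CPM, Cish at 118 and 37.5 CPM and Pim2 at 216 and 61.5 CPM, but Socs2, also a STAT5 target, was at 8.23 and 25.3 CPM. In the TNF family, 4 of 13 members were higher and 5 lower, shares near those of all genes (23.1% higher and 34.8% lower). The costimulatory ligand Cd70 was at 16.6 and 0.103 CPM and Tnfsf11 (RANKL) at 30.7 and 1.89 CPM, while the receptor Tnfrsf18 (GITR) was at 229 and 455 CPM and Tnfrsf9 (4-1BB) at 211 and 257 CPM.

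The antigen receptor genes did not move as 1 block. Of 25 members reaching 10 CPM, 9 were higher by 1.5-fold or more and 3 lower by as much (median log2 ratio 0.27). Cd3g, a signalling chain of the receptor, was at 148 and 972 CPM and in a median cell at 1 and 13 adjusted counts, and Cd3d at 331 and 1239 CPM. Cd8a was at 412 and 425 CPM (log2 ratio 0.04). The lower members were the negative regulators Cd5 (118 and 31.3 CPM) and Cd6 (176 and 32.7 CPM) and the adaptor Sh2d2a (182 and 96.9 CPM), whereas Ptpn22, a phosphatase that also restrains the receptor, was at 20.5 and 88.3 CPM.

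Among inhibitory receptors and their ligands 3 of 8 were higher and 4 lower. Ctla4, which competes for costimulatory ligands, was at 25.1 and 145 CPM and above 0 in 23% and 78.9% of cells, and Lag3 at 75.9 and 166 CPM. Pdcd1 (PD-1) was at 14.8 and 2.13 CPM, Btla at 20.6 and 4.39 CPM, and the ligand genes Cd274 and Pdcd1lg2 at 16.5 and 4.01 CPM and at 17.3 and 3.70 CPM. The list's median of -1.27 rests on its low members: it was 1.13 over the 3 genes at 50 CPM or more. Havcr2 (TIM-3) and Tigit were below 1 CPM in both libraries.

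Killer genes were mostly higher. Of 19 members reaching 10 CPM, 11 were higher by 1.5-fold or more and 2 lower by as much (median log2 ratio 0.81). Gzmb, the serine protease that triggers death of target cells, was at 1118 and 1796 CPM (log2 ratio 0.68), and 64.3% (exact 95% interval 61.9 to 66.7%) and 99.5% (exact 95% interval 99 to 99.8%) of cells were above 0. The median cell held 4 and 18 adjusted counts, but the 90th percentiles were 54.9 and 61, so the libraries differed in the low cells and hardly in the high ones. The mean natural log value, which gives high cells less weight, gave a log2 ratio of 1.95. Gzma, another granzyme, was at 26.3 and 181 CPM, with 45 and 751 cells above 0. At 24 h its level rested on few cells, with a 99th percentile of 1 and a maximum of 411, and from the mean natural log value its log2 ratio was 4.51 in place of 2.78. Prf1, the pore-forming perforin, was at 0.370 and 1.03 CPM.

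The lectin-like receptors Klrd1 and Klrk1, shared with NK cells, were at 6.67 and 76.7 CPM and at 5.84 and 43.7 CPM. Ctla2a and Ctla2b, protease inhibitor-like genes of activated T cells, were at 16.8 and 683 CPM and at 1.32 and 81.8 CPM, and as near-identical copies their split between the symbols is uncertain. The granzyme B inhibitor Serpinb9 went the other way, at 129 and 16.1 CPM (log2 ratio -3.0), as did Serpinb6b at 132 and 54.4 CPM.

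Factors of effector and memory fate were split by member. Of 27 members reaching 10 CPM, 13 were higher by 1.5-fold or more and 9 lower by as much (median log2 ratio 0.49). The T-box factors, which direct killer differentiation, were lower: Tbx21 at 43.7 and 13.2 CPM and Eomes at 30.7 and 4.25 CPM. Id2, which favours effector cells, was at 71.5 and 162 CPM and Id3, linked to memory, at 106 and 59.2 CPM. Tcf7, a factor of naive and stem-like cells, was at 131 and 78.7 CPM and Bach2, which restrains effector genes, at 55.5 and 16.5 CPM. Nfil3 (3.99 and 57.3 CPM), Ikzf2 (23.9 and 105 CPM) and Gata3 (8.07 and 21.6 CPM) stood higher. Prdm1, which encodes the effector repressor BLIMP-1, was at 0.329 and 9.33 CPM and stayed below 10 CPM.

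Among homing genes, those of lymph node egress stood higher. Klf2, the factor that turns on egress receptors, was at 20.5 and 139.7 CPM and above 0 in 11.1% and 60.6% of cells, and its target S1pr1 at 3.46 and 15.9 CPM. Ccr7, a receptor for entry into lymph nodes, was at 513 and 277 CPM. Of the list of 27 naive, homing and egress genes at 10 CPM or more, 14 were higher and 7 lower, with a median of 0.78 that was 0.18 over the 16 at 50 CPM or more. Adhesion genes stood higher in 14 of 25 but lower in 8. Itgb7, an integrin chain of gut homing, was at 21.2 and 257 CPM, Cd47 at 138 and 561 CPM and Itgb3 at 0.288 and 16.6 CPM, while Cd44 was at 72.3 and 27.6 CPM and Icam1 at 53.1 and 14 CPM.

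**Figure D3:**
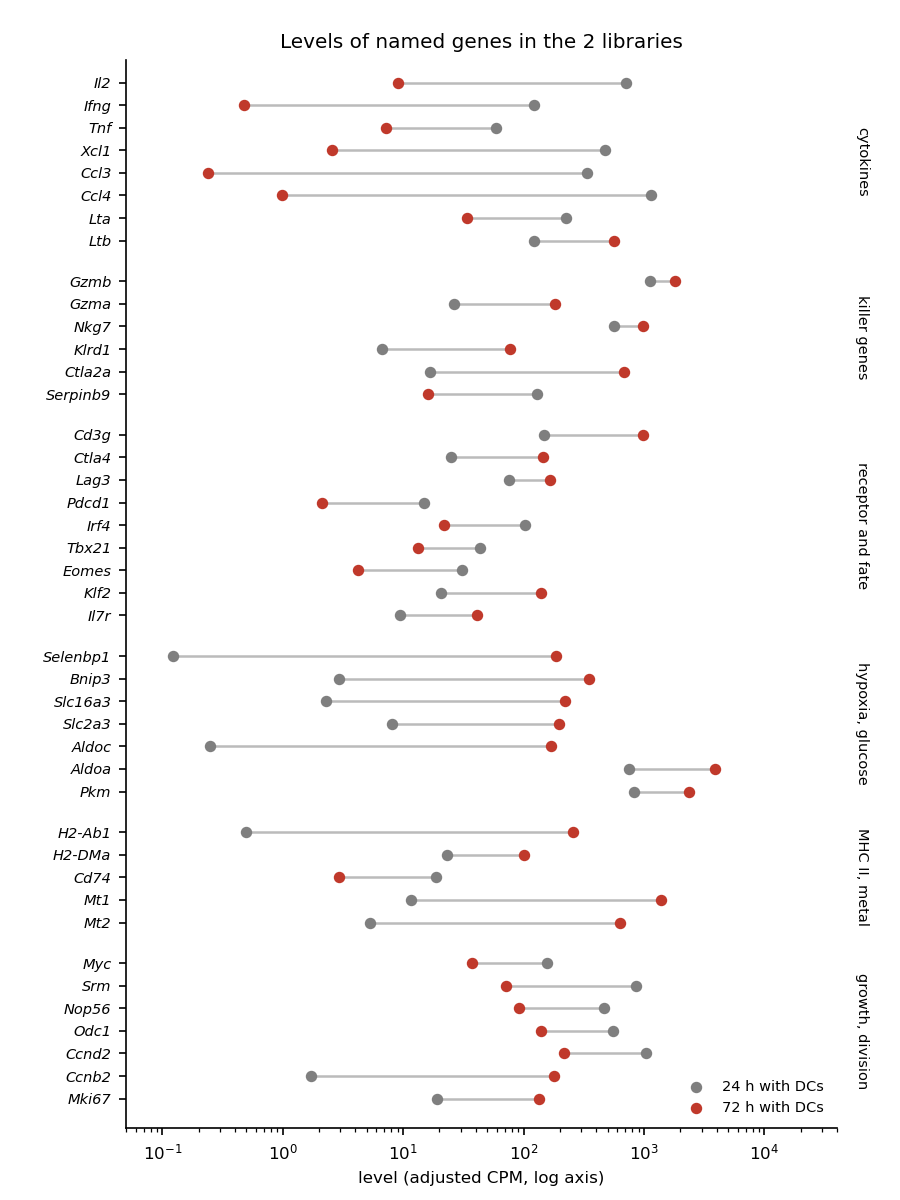
Levels of 42 named genes at 24 h (grey) and 72 h (red) in adjusted CPM on a log axis, 1 library each, grouped by role. Cytokine genes other than Ltb lie to the left at 72 h, and killer genes other than Serpinb9, hypoxia genes and metallothioneins lie to the right.

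The S100, annexin and galectin list had 19 of its 21 members at 10 CPM or more higher and 0 lower (median 2.31). Lgals1, a secreted galectin, was above 0 in 37.6% and 100.0% of cells with a median of 0 and 33 adjusted counts. Vim, the intermediate filament vimentin, was above 0 in 20.7% and 99.9%. Crip1 was at 74.7 and 1359 CPM, S100a6 at 10.3 and 346 CPM and S100a4 at 1.36 and 13.4 CPM. The sum of the list had a median of 11 and 115 per cell, and the 95th percentile at 24 h (34) lay below the 5th at 72 h (62.2). Cytoskeletal genes stood higher in 23 of 33 but lower in 2. The actin-binding thymosins Tmsb10 and Tmsb4x stood at 953 and 5924 CPM and at 4673 and 15459.7 CPM, and Pfn1, which feeds actin growth, at 607 and 368 CPM.

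Of the 42 list sums, that of hypoxia and HIF target genes separated the single cells of the 2 libraries most. Of 33 members reaching 10 CPM, 28 were higher by 1.5-fold or more and 1 lower by as much (median log2 ratio 2.39). The sum of the list was 22 and 108 in the median cell, and a 72 h cell exceeded a 24 h cell with a probability of 0.9996. Bnip3, a mitophagy receptor, was above 0 in 4.10% (exact 95% interval 3.17 to 5.20%) and 96.4% (exact 95% interval 95.4 to 97.2%) of cells, with a median of 0 and 5. The lactate exporter Slc16a3 was above 0 in 3.20% and 93.4% of cells. All 5 of Bnip3, Slc16a3, Egln3, Ndrg1 and Ankrd37 were above 0 in 0 of 1562 cells at 24 h, which allows a share of up to 0.236%, and in 1152 of 1926 cells at 72 h (59.8%, exact 95% interval 57.6 to 62.0%). None of the 5 was above 0 in 57.2% and 0.104% of cells.

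Several roles within the response were represented. The oxygen-sensing prolyl hydroxylases Egln1 and Egln3, which mark HIF for removal, were at 16.7 and 88.1 CPM and at 15.8 and 186 CPM. The collagen hydroxylase P4ha2 was at 0.741 and 44 CPM, the mTORC1 inhibitor Ddit4 at 12.7 and 229 CPM and Pdk1, which keeps pyruvate out of the citrate cycle, at 21.2 and 111 CPM. Selenbp1, a methanethiol oxidase, was above 0 in 3 and 1381 cells (0.123 and 187 CPM), and no ratio is given on 3 cells. Hif1a itself was at 58.8 and 87.7 CPM (log2 ratio 0.58) and Vegfa at 1.07 and 9.12 CPM. The member at least 1.5-fold lower was the carbonic anhydrase gene Car12, at 13.3 and 2.50 CPM.

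Genes of glucose use stood higher as well. Of 33 members reaching 10 CPM, 23 were higher by 1.5-fold or more and 4 lower by as much (median log2 ratio 1.63), and the sum per cell was 131 and 380.5 in the median cell. The glucose transporter Slc2a3 was at 8.11 and 197 CPM and Slc2a1 at 27.8 and 99.9 CPM. Aldoc, an aldolase isoform, was above 0 in 6 and 1503 cells, whereas the isoform Aldoa was above 0 in every cell of both libraries, at 748 and 3858 CPM and a median of 11 and 56.5. Pkm, the pyruvate kinase, was at 833 and 2354 CPM and Ldha, the lactate dehydrogenase, at 1982 and 3671 CPM (log2 ratio 0.89). Glycogen genes belonged to the higher members, with the branching enzyme Gbe1 at 8.48 and 98.5 CPM and the phosphorylase Pygl listed at 0 at 24 h and at 27.5 CPM at 72 h. The lower members were the glycerophosphate dehydrogenase Gpd2 (27.8 and 9.40 CPM), the importer Slc16a1 (52.8 and 23.7 CPM), the enolase isoform Eno3 (37.3 and 17.8 CPM) and Pdhb (49.9 and 30.3 CPM), a subunit that takes pyruvate into the citrate cycle.

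Other carbon pathways differed less. Of 7 pentose phosphate genes 1 was higher, the transketolase Tkt at 164 and 359 CPM. The citrate cycle and glutamine list was 4 of 26 higher, 6 lower, median log2 ratio -0.03, a median that turns to 0.11 when ratios are centred on the typical gene. Of 72 nuclear genes of the respiratory chain 7 were higher and 5 lower, among them the complex I subunit Ndufv3 (87 and 613 CPM) and Atp5g1 of the ATP synthase (1049 and 389 CPM). The mitochondrially encoded genes spread from mt-Co1 at 2131 and 5086 CPM to mt-Nd1 at 2358 and 1151 CPM, with 3 of 13 higher and 2 lower, and took 1.57% and 1.65% of adjusted counts. The shares over all genes were 23.1% higher and 34.8% lower.

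Metallothioneins, small proteins that bind zinc and copper, were found in most 72 h cells. Mt1 was at 11.5 and 1377 CPM, above 0 in 10.5% (exact 95% interval 9.02 to 12.1%) and 97.7% (exact 95% interval 96.9 to 98.3%) of cells, and its 72 h cells ranged from a median of 14 to a 99th percentile of 91.8. Mt2 was at 5.31 and 635 CPM, above 0 in 5.12% and 82.7%. Both were above 0 in 3.20% and 81.8% of cells, and as paralogs they may share reads. The zinc transporters were split. Of the whole list 4 of 14 were higher and 5 lower, shares near those of all genes. Besides Mt1 and Mt2 the higher members were the transporter genes Slc30a9 (17.3 and 28.2 CPM) and Slc39a4 (4.16 and 10 CPM). The lower members included the zinc-sensing factor Mtf1 at 34.7 and 12.2 CPM, the transporter Slc30a5 at 26.3 and 11.6 CPM and Slc39a7 at 68.6 and 28.2 CPM. Redox genes were split (10 of 29 higher, 9 lower, median log2 ratio -0.25), beside 23.1% higher, 34.8% lower and a median of -0.23 over all genes. Glrx, a glutaredoxin, was at 7.0 and 131 CPM and Prdx5, a peroxiredoxin, at 137 and 579 CPM, while the thioredoxin reductase Txnrd1 was at 89.9 and 25.5 CPM and mitochondrial Txn2 at 402 and 106 CPM.

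H2-Ab1, the beta chain of the MHC class II molecule I-A, was above 0 in 0.640% (exact 95% interval 0.307 to 1.17%) and 89.1% (exact 95% interval 87.6 to 90.5%) of cells, at 0.494 and 255 CPM. The gene lies at chr17:34257689-34269419 (GRCm38, plus strand). Other genes of the class II pathway were not found at that level. The partner chain H2-Aa was at 0.288 and 0.514 CPM, H2-Eb1 at 1.07 and 1.27 CPM, the invariant chain Cd74 at 18.6 and 2.91 CPM and the transactivator Ciita at 0 and 0.137 CPM. H2-Ab1 and H2-Aa were both above 0 in 11 of 1926 cells at 72 h. DCs make all of H2-Ab1, H2-Aa, H2-Eb1 and Cd74, and the last 3 stood at or below 2.91 CPM at 72 h. The 6 DC markers outside the gene lists summed to 77.6 and 155 CPM, of which 72.9 and 147 were Cst3. Cst3 was also at 126 CPM before co-culture, above 0 in 98.1% of cells. Itgax (0.288 and 0.0343 CPM), Zbtb46 (1.23 and 0.103 CPM) and Ccl17 (1.28 and 0.24 CPM) were lower at 72 h. Fscn1 (1.93 and 6.93 CPM) and Wdfy4 (0 and 0.206 CPM) were higher. Whether RNA of DCs had a part in the H2-Ab1 level was not tested. H2-DMa and H2-Oa, whose products promote or restrain peptide loading, respectively, were at 23.3 and 101 CPM and at 4.28 and 40.8 CPM.

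MHC class I and interferon response genes also stood mostly higher. Of 23 class I and processing genes 12 were higher and 3 lower (median 0.59). The immunoproteasome subunits Psmb9 and Psmb8 were at 116 and 524 CPM and at 538 and 1209 CPM, the peptide transporter Tap1 at 81.9 and 207 CPM, and the chaperone Calr at 651 and 296 CPM. H2-Q7 was at 114 and 353 CPM, one of several near-identical class I genes. Of 41 interferon response genes 29 were higher and 1 lower (median 1.01), with Phf11b at 5.18 and 100.2 CPM, Epsti1 at 12.9 and 182 CPM and, as the lower member, the ubiquitin-like modifier Isg15 at 20.5 and 9.02 CPM. The interferon response genes stood mostly higher at 72 h while the interferon gene Ifng was at 123 and 0.480 CPM.

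Genes of late cell cycle phases were mostly higher. Of 85 G2 and M phase genes 73 were higher and 0 lower (median 1.61). Of 69 S phase genes 2 were higher and 22 lower (median -0.33), the latter close to the share and median of all genes (34.8% lower, median -0.23). The G2 and M sum was 61.5 and 176 in the median cell and the S phase sum 98 and 74. Ccnb2, a mitotic cyclin, was above 0 in 2.56% (exact 95% interval 1.84 to 3.47%) and 76.1% (exact 95% interval 74.1 to 78%) of cells, and Ccnb1 and Ccnb2 were both above 0 in 1.15% and 46.2%. Cenpa, the histone of centromeres, was at 7.45 and 308 CPM, and Mki67, a marker of cycling cells, at 19.1 and 135 CPM (19% and 66.9% of cells). In S phase Ung, which removes uracil from DNA, was at 187 and 27.4 CPM, Orc1, of the origin recognition complex, at 23.7 and 7.27 CPM and the thymidine kinase Tk1 at 47.4 and 97.4 CPM.

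Inhibitors of the cycle stood higher beside the mitotic cyclins. The CDK inhibitors Cdkn1a (p21), Cdkn1b (p27), Cdkn2c and Cdkn2d were at 73.2 and 177 CPM, 3.33 and 33.9 CPM, 5.76 and 23.9 CPM and 18.7 and 197 CPM. Ccnd2, the D-type cyclin of entry into the cycle, was at 1036 and 216 CPM, and Ccnd3 at 162 and 373 CPM. Ccng2, an atypical cyclin of arrested cells, was at 1.11 and 74.6 CPM. Histone genes stood higher in 9 of 16 but lower in 3, with the linker histone Hist1h1b at 14.4 and 70.2 CPM and Hist1h3a at 24.8 and 6.55 CPM. Reads of these near-identical genes, most without a poly(A) tail, are uncertain.

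Growth genes were lower throughout the ribosome biogenesis list: 68 of 68 members at 10 CPM or more were lower by 1.5-fold or more (median -2.04). Myc, a known activator of such genes, was at 156 and 37.2 CPM and above 0 in 83.4% and 34.7% of cells. Whether Myc had a part in the lower levels was not tested. Srm, the spermidine synthase, was above 0 in 99.8% and 54.6%, with a median of 13 and 1, and the nucleolar Nop56 was at 467 and 90.9 CPM. Polr1b, a subunit of RNA polymerase I, was at 37 and 4.49 CPM. The sum was 416 and 129 in the median cell, with the 5th percentile at 24 h at 268 and the 95th at 72 h at 207. The ribosomal proteins themselves did not differ in this way: 1 of 95 was higher and 4 lower, with a median of -0.04 (0.11 when centred on the typical gene) and 38.9% and 38.1% of adjusted counts. Mitochondrial ribosomal protein genes stood lower in 41 of 76 but higher in 1.

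Many genes that supply building blocks were lower. Nucleotide synthesis genes stood lower in 18 of 34 but higher in 5, with the purine enzyme Gart at 158 and 33 CPM, Ctps at 90.3 and 18.7 CPM and Rrm2, of deoxynucleotide synthesis, at 117 and 138 CPM. Polyamine genes included the ornithine decarboxylase Odc1 at 552 and 138 CPM and Amd1 at 66.5 and 14.5 CPM. Ass1, which remakes arginine from citrulline, was higher at 20.5 and 57.1 CPM. Among amino acid transporters and transaminases 6 of 11 were lower and 1 higher, with the leucine importer Slc7a5 at 68.8 and 29.3 CPM and the transaminase Bcat1 at 69.5 and 12.3 CPM. Aminoacyl-tRNA synthetases were lower in 14 of 22 but higher in 3, led by Aars at 263 and 79.7 CPM.

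Of 36 translation factors 22 were lower and 1 higher, the latter Eif4ebp1, a brake on cap-dependent translation, at 128 and 347 CPM. Eef1a1, which delivers tRNAs to the ribosome, was at 5055 and 7513 CPM. Chaperones were lower in 19 of 31 but higher in 0, with mitochondrial Hspd1 at 909 and 232 CPM and cytosolic Hsph1 at 98.8 and 14.9 CPM. Proteasome genes stood lower in 20 of 38, and the 3 higher members were the immunoproteasome subunits Psmb8, Psmb9 and Psmb10. Within the integrated stress response and serine list 4 of 22 were higher and 9 lower, shares near those of all genes (23.1% and 34.8%). The higher members included Trib3 (5.06 and 40.7 CPM) and Ddit3 (8.93 and 43.7 CPM), both targets of ATF4. The lower ones included the one-carbon enzymes Shmt1 (121 and 16.9 CPM) and Mthfd2 (246 and 98.4 CPM).

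Lipid synthesis stood apart from the other growth pathways. Of 36 cholesterol and fatty acid genes 24 were higher and 3 lower (median 0.99). The desaturases Scd1 and Scd2 were at 0.494 and 50.5 CPM and at 7.65 and 312 CPM, and Fdps of the mevalonate pathway at 49.5 and 289 CPM. Fasn, the fatty acid synthase, was at 56.7 and 40.9 CPM (log2 ratio -0.47). The sum was 14 and 32 in the median cell.

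Survival genes were split by member. Bcl2 was at 96.9 and 356 CPM, while the other protective members Mcl1, Bcl2l1 and Bcl2a1b were at 115 and 47.2 CPM, 154 and 15.8 CPM and 122 and 26.7 CPM, the last with a close copy in Bcl2a1d. The whole list had 7 of 25 higher and 10 lower, shares near those of all genes (23.1% higher and 34.8% lower). Of 22 p53 targets 9 were higher, led by Trp53inp1 at 3.50 and 17.4 CPM, and 10 lower, led by Plk3 at 33.7 and 2.33 CPM. Autophagy and lysosome genes stood higher in 12 of 25 but lower in 2, with the mitophagy receptor Bnip3l at 28.4 and 389 CPM.

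**Figure D4:**
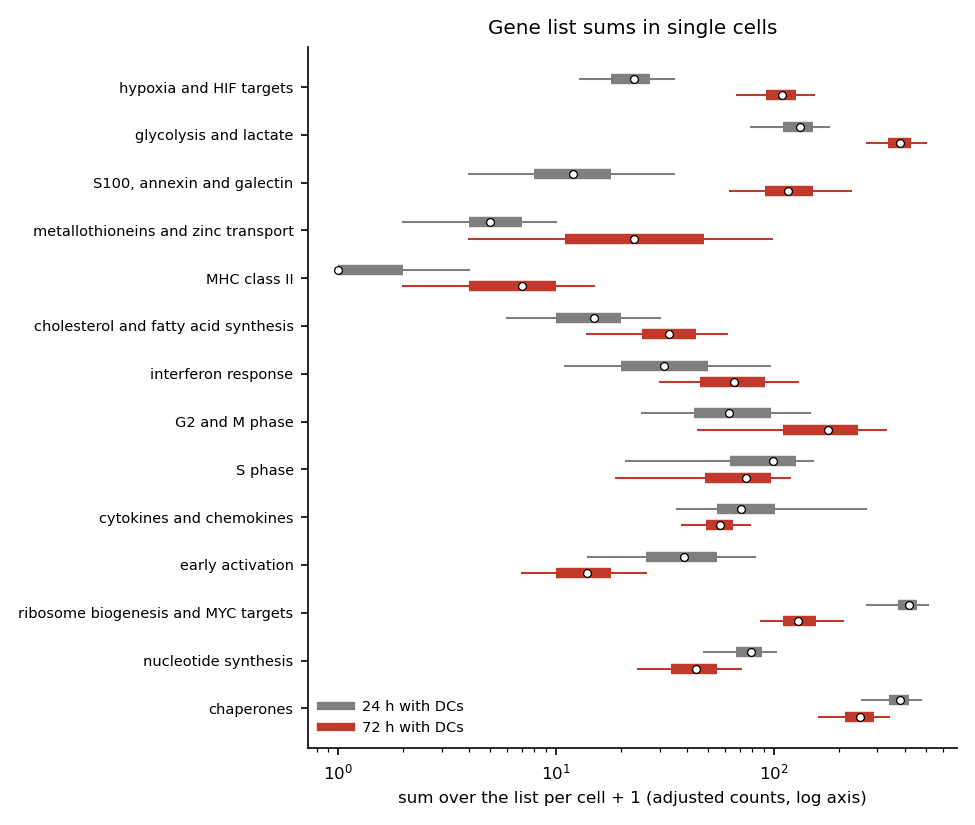
Sum of adjusted counts per cell, plus 1, over 14 gene lists (x axis, log scale) at 24 h (grey) and 72 h (red), with the median as a circle, the 25th to 75th percentile as a thick bar and the 5th to 95th as a thin line. The thin lines do not overlap for hypoxia, glycolysis, S100 and ribosome biogenesis, and overlap for the others shown.

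Within each library the list sums also varied from cell to cell. Spearman's rho across cells is given as a description, since cells of 1 library share its depth and processing. Between the hypoxia sum and the glycolysis sum, without shared genes, rho was 0.17 over 1562 cells at 24 h and 0.56 over 1926 cells at 72 h. With the number of genes above 0 per cell, rho at 24 h and 72 h was 0.32 and -0.04 for the hypoxia sum, 0.46 and -0.26 for the glycolysis sum and 0.50 and 0.41 for the ribosome biogenesis sum. Between hypoxia and ribosome biogenesis rho was 0.26 and -0.33, and between hypoxia and the MHC class II list 0.04 and 0.43. The S phase and G2/M sums had a rho of 0.85 at 24 h and 0.25 at 72 h, beside 0.81 and 0.74 with the number of genes at 24 h and 0.52 and 0.48 at 72 h.

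The same step in cultures with MDSCs, 2247 cells at 24 h and 4942 at 72 h, shares no library with these values. There 271 of 2974 genes (9.11%) were counted higher and 819 (27.5%) lower. Of the 696 genes lower without MDSCs 561 were also counted lower with them, 80.6% of the 696 and 68.5% of the 819. Of the 478 higher genes 211 were shared, 44.1% of the 478 and 77.9% of the 271. These counts require 50 CPM in the libraries with MDSCs too. By fold alone, 264 of the 478 (55.2%) were 2-fold or more higher with MDSCs, and 569 of the 696 lower. No difference between the steps was tested, since each rests on 1 library per time.

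The medians of the hypoxia and glucose lists stood far apart between the steps, but single members differed. The median of the hypoxia list was 2.39 without and 0.14 with MDSCs, that of glycolysis 1.63 and 0.02, and that of cholesterol and fatty acid synthesis 0.99 and 0.01. Over all genes at 10 CPM or more the median was -0.23 without and -0.41 with MDSCs, so a list near 0 with MDSCs stood above the typical gene there. Slc16a3 was at 2.30 and 220.2 CPM without and 14.2 and 24.6 CPM with MDSCs, Slc2a1 at 27.8 and 99.9 CPM and 34.7 and 14.7 CPM, and Ankrd37 at 16.9 and 235 CPM and 29 and 20.4 CPM. Other genes of these groups were clearly higher at 72 h in both steps. The log2 ratios without and with MDSCs were 6.89 and 2.71 for Bnip3 and 4.17 and 2.75 for Ddit4. Aldoc was at 0.290 and 22.3 CPM with MDSCs. Egln1 and Egln3 had log2 ratios of -0.42 and -0.44 with MDSCs, near the median of all genes in that step. H2-Ab1 was at 1.42 and 16 CPM and Mt1 at 35 and 368 CPM with MDSCs. The p53 targets had a median of -0.28 without MDSCs, near that of all genes, and of 1.04 with them. The cytokine, early activation and ribosome biogenesis lists had medians on the same side in both steps (-6.31 and -4.92, -2.28 and -2.09, -2.04 and -1.73).

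**Figure D5:**
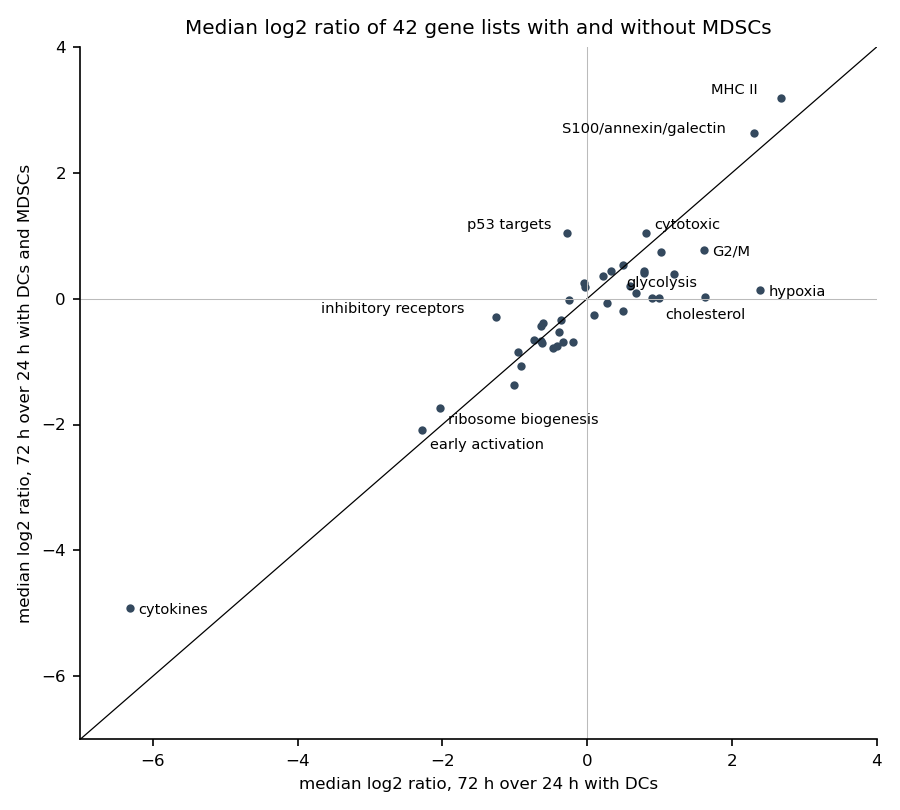
Median log2 ratio of 72 h over 24 h for the 42 gene lists in cultures without (x axis) and with MDSCs (y axis), with equality as the diagonal and 1 point per list. Hypoxia, glycolysis and cholesterol genes lie right of the diagonal near 0 on the y axis, and cytokine, early activation and ribosome biogenesis genes lie low on both axes.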

How the data were processed

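The deposited tables give 1 value per gene and cell on a natural log scale. Its exponential minus 1 was whole, within 1e-06, with 0 exceptions. These whole numbers were adjusted for depth and are not molecule counts, so count models, thinning and doublet calling were not used. The labels do not state the step that made them. The submitters' processing notes name Cell Ranger 2.0.1, Seurat and mm10, without saying what each was used for.

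The library of each cell came from the deposited annotation. Values of the table of all time points (13911 genes, 13629 cells) were turned back into whole numbers by exp(value) - 1, and each library's cells were summed with Python 3.11.15, NumPy 2.4.6, SciPy 1.17.1 and pandas 2.3.3. Calls over all genes needed 50 CPM in at least 1 library and a 2-fold ratio, and calls over members of 42 gene lists 10 CPM and 1.5-fold. The design had assumed molecule counts and was kept with these adjusted values. With 1 library per group no p-value was computed, and shares have exact (Clopper-Pearson) 95% intervals for counting error only.

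The cells, gene lists and naming rule were chosen with earlier results of these data known. The rule named the 12 largest ratios in each direction, up to 6 per list and direction, and a set of marker genes. Aldoa, Ankrd37, Ccnd3, Cdkn2c, Ddit4, Egln1, Egln3, H2-Aa, H2-Eb1, Havcr2, Lta, Pdk1, Pfkl, Rrm2, Serpine2, Tigit, Vegfa and the markers of other cell types were named after their values were seen. GENCODE M21 on GRCm38, which underlies mm10, held 13461 of the 13911 symbols and gave gene positions. Promoters are from RefSeq.

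The alternatives were equal weight per cell, levels from the mean natural log value, centring on the median ratio, totals that leave out genes of ribosomal proteins and of the mitochondrial genome, other minimum levels and folds, the separately adjusted tables of 24 h and 72 h, and leaving out cells with 3 or more markers of another type. This last setting could leave out no cell of a type with fewer than 3 countable markers.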

Additional observations from a re-analysis of the deposited data

Results flagged for a closer look

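For 2 genes, both named after their values were seen, the step from 24 h to 72 h went opposite ways without and with MDSCs. Each step was at least 2-fold, with 50 CPM or more in at least 1 of its libraries. By fold alone, 3 of the 478 higher genes were 2-fold or more lower with MDSCs. Likewise, 1 of the 696 lower genes was 2-fold or more higher with them. The difference between the steps was not tested. Serpine2, a secreted protease inhibitor gene, went from 128 to 12.5 CPM in the step without MDSCs (log2 ratio -3.35), and from 19.9 to 168 CPM with them (log2 ratio 3.08). Without MDSCs it was above 0 in 742 of 1562 cells at 24 h, and the top 5% of cells held 36.5% of its total. Pfkl, the liver isoform of the glycolytic phosphofructokinase, went from 59.7 to 120 CPM without MDSCs (log2 ratio 1.0) and from 87.0 to 34.7 CPM with them (log2 ratio -1.33). Without MDSCs Pfkl only just reached the 2-fold limit. Each of these levels is 1 library.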

How the results depend on the processing

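The 478 higher and 696 lower genes became 1137 and 1528 at a minimum of 10 CPM, 142 and 155 at 200 CPM and 2703 and 2620 with no minimum. At 3-fold 271 were higher and 322 lower, and at 1.5-fold 1101 were lower. Under the other settings tried the counts stayed within 1.5 times of these. The median of the cytokine list was -2.82 from the mean natural log value, -2.89 in the separately adjusted tables and -2.87 over the 12 genes at 50 CPM or more. That of the inhibitory receptors was -0.51 when ribosomal protein and mitochondrially encoded genes were left out of the total, and reversed to 1.13 over its 3 genes at 50 CPM or more. At that minimum the median of the TNF family turned from -0.39 to 0.49 over 4 genes and that of the metallothionein and zinc list from -0.46 to 6.90 over 3. There the median was 0.18 over 16 naive and homing genes and 5.56 over 2 genes of MHC class II. Fewer genes enter at a higher minimum, and for the other changes the cause was not tested. No log2 ratio of a named gene at 1.5-fold or more changed direction under the alternatives run on it. Smaller ratios of 6 named genes did in 7 recomputations: centred on the median ratio, Ctcf went from -0.02 to 0.12, G6pdx from -0.08 to 0.06 and Gabarapl1 from -0.13 to 0.01, and in the separately adjusted tables G6pdx went to 0.05, Cd8a from 0.04 to -0.04, Eif4a2 from 0.14 to -0.0028 and Pdia3 from 0.08 to -0.0053. In all, 18 recomputed ratios moved by more than 1.5-fold, 14 of them where levels were means of natural log values. No paired analysis was possible because each group was 1 library with no replicate number. The depth in molecules is unknown, so a level near 0 may be a gene that was not detected, and shares of cells depend on the authors' adjustment: 51 of the recomputed shares moved beyond their interval, each when 2 or more adjusted counts were required.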

Other observations

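Among the 12 genes with the largest ratio in each direction were several that belong to none of the lists. On the higher side, the growth factor receptor chain gene Acvrl1 (ALK1) was at 0.165 and 80.9 CPM and above 0 in 4 and 1034 cells, and the matrix glycoprotein gene Emilin2 at 0.123 and 54.1 CPM, in 3 and 646 cells. Fam183b was at 0.123 and 70 CPM (3 and 919 cells) and 1500009L16Rik at 1.11 and 220.4 CPM (26 and 1626 cells). Mgarp, a mitochondrial protein gene linked to hypoxia, was at 0.741 and 131 CPM and, with MDSCs, at 1.65 and 4.60 CPM. These genes differed in spread at 72 h: 1500009L16Rik was above 0 in 84.4% of cells and Emilin2 in 33.5%.

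On the lower side stood Tagap, a GTPase-activating protein gene of activated T cells, at 67.5 and 1.92 CPM, Mir155hg, the host gene of miR-155, at 53.2 and 1.58 CPM, and Lmna, the nuclear lamin A/C, at 61.1 and 2.37 CPM. The tRNA methyltransferase gene Trmt61a was at 64.3 and 4.73 CPM and Slc25a33, a mitochondrial carrier of pyrimidine nucleotides, at 92.7 and 7.68 CPM. Each of these 5 genes was also lower at 72 h with MDSCs, with log2 ratios of -4.33, -2.63, -2.76, -3.32 and -2.98.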
